A study of Mus musculus with 24 samples.

Results

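The livers of mice in the dark phase of the day were compared with livers taken in the light phase, across all genes of a whole-transcript Affymetrix array. Of the 24 arrays in the series, 18 entered the comparison. Zeitgeber time (ZT) is counted in hours from lights on, and lights go off at ZT12. The dark group held the 9 arrays of ZT15, ZT18 and ZT21, and the light group held the 9 arrays of ZT3, ZT6 and ZT9, with 3 arrays at each hour. The 6 arrays of ZT0 and ZT12, at the light switches, were left out of it and are described at the end. All groups were alike in the rest of their description: male animals aged 13 weeks, of the strain that the labels spell C56bl/6J, with free access to chow, and no genotype or treatment that set them apart. Total RNA was measured from 300 ng per sample. The labels number the replicates 1 to 3 at each hour and do not say that they are separate animals, so the spread behind the p-values is that of these arrays and could be technical.

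The liver clock is a feedback loop. BMAL1 (gene Arntl) pairs with CLOCK or NPAS2, binds E-box sequences and drives the genes of its own repressors, the PER and CRY proteins and the REV-ERB receptors, while REV-ERB receptors in turn repress Arntl from ROR elements. Mice are active and eat mainly at night, so in liver this loop runs beside a daily alternation of fed and fasted metabolism. A comparison of pooled phases finds transcripts whose high and low hours fall in opposite phases. It can miss a transcript that peaks near a light switch, since its rising and falling hours can cancel.

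The values are log2 expression, and a gene's value is the mean of its probe sets. A difference is the mean of the 3 dark hours minus the mean of the 3 light hours, in log2 units, and it was tested with limma using the spread within hours. A gene is called where its p-value adjusted over all 23102 genes is below 0.05. The array medians lay between 6.44 and 6.51, and the mean correlation of each of the 18 arrays with the other arrays was 0.9813 to 0.9849. The number of arrays limits the precision. The 13 hepatocyte markers were all above background, with a median level of 16.5 in the dark and 16.41 in the light. Background here is 6.19, a level that 95% of olfactory receptor genes did not pass and which stands for genes without a role in liver, and 10202 genes had a mean above it.

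Replicate 1 stood apart from replicates 2 and 3 on some clock genes at every hour from ZT3 to ZT21. Dbp, a clock output gene, was at 7.39 in ZT3 replicate 1 and between 10.98 and 12.94 on the other 8 light arrays. The same array was the lowest light array for Nr1d2, Per3 and Tef and the highest for Npas2. ZT6 replicate 1 was at 6.73 for Ciart, against 9.23 and 9.08 on replicates 2 and 3 of ZT6. Replicates 2 and 3 of ZT3 were at 6.74 and 7.18. For Arntl it was at 8.56, against 6.28 and 6.65 at ZT6 and 9.02 and 8.0 at ZT3. ZT9 replicate 1 had Nr1d1 at 10.91 (replicates 2 and 3: 9.25 and 9.05, at ZT6 11.31 and 11.1). ZT12 replicate 1 had Dbp at 11.76 (8.8 and 8.9, at ZT9 11.74 and 12.05). ZT18 replicate 1 had Npas2 at 6.58 (8.77 and 8.61, at ZT15 4.86 and 5.4). ZT21 replicate 1 had Per2 at 8.25 (6.77 and 6.84, at ZT18 7.9 and 8.71). These values lay nearer to the hour before than to their own. Dbp on ZT6 replicate 1, at 10.98, lay below both hours. The cause was not tested. In the dark group, ZT15 replicate 1 had the highest Ciart value, 7.67, against 5.91 on the next array. Without ZT3 replicate 1 the number of called genes was 750, without ZT6 replicate 1 it was 770 and without ZT15 replicate 1 it was 577. With only replicates 2 and 3 of each hour it was 522. Values without ZT3 replicate 1 or ZT15 replicate 1 are given beside some of the clock genes.

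Dark and light livers differed in a small share of their transcripts. Of 23102 genes, 716 (3.1%) were called, 405 of them higher in the dark (1.75%) and 311 lower (1.35%). Among the 10202 genes above background the called share was 6.36%. Most differences were modest: the median called difference was 1.6-fold, and 101 of the higher and 60 of the lower genes differed at least 2-fold. At least 4-fold differences were found in 17 of the higher and 11 of the lower genes. At an unadjusted p below 0.05 there were 3396 genes. The total depended on ZT6 replicate 2, without which 466 genes were called (267 higher and 199 lower), and the number of lower genes on ZT3 replicate 2, without which it was 195.

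In 72 genes (0.312%) no dark array overlapped any light array. Of these, 43 were called higher, 27 were called lower and 2 were not called. The 24 named genes with the largest differences among the called ones come first, 12 in each direction, and the plot of the largest differences shows all of their arrays.

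**Figure D1:**
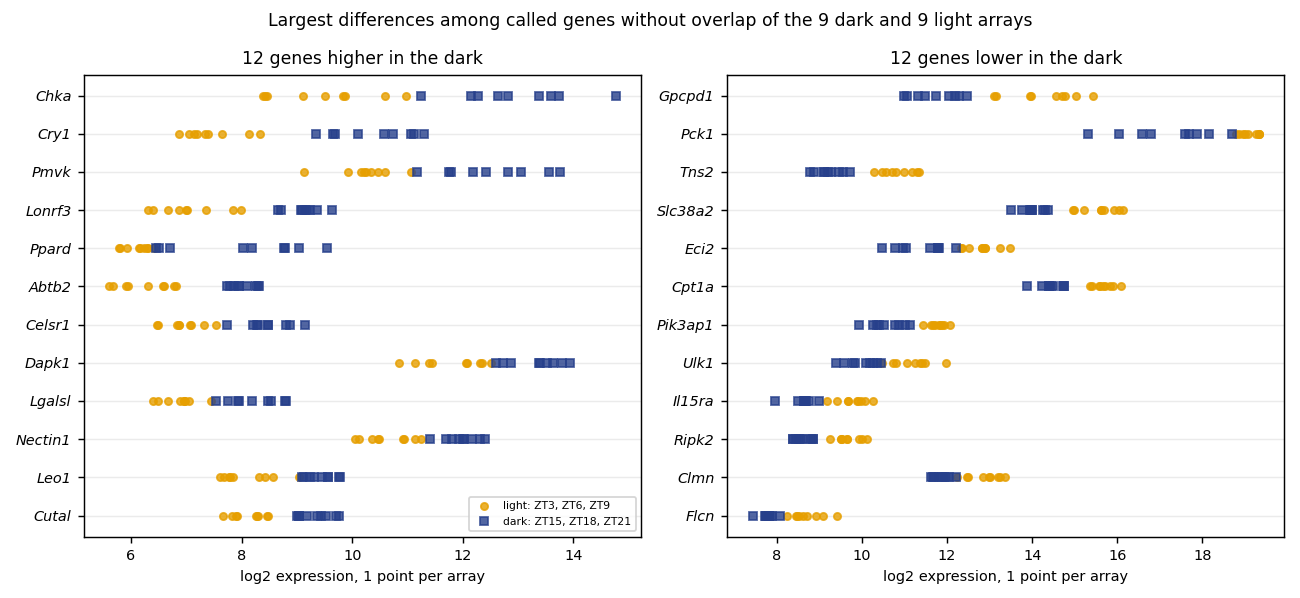
Log2 expression of 12 genes higher in the dark (left) and 12 genes lower in the dark (right), with circles for the 9 light arrays (ZT3, ZT6, ZT9) and squares for the 9 dark arrays (ZT15, ZT18, ZT21) of each gene. The genes were chosen for having no overlap, so in each row all circles lie on one side of all squares, and the horizontal axis is a log2 scale.

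Among the genes higher in the dark without overlap, Chka and Cry1 differed most. Chka encodes choline kinase alpha, the first enzyme of phosphatidylcholine synthesis from choline (chromosome 19, 3851585 to 3894369 in mm10). Its lowest, median and highest light arrays were at 8.39, 9.5 and 10.98 and its dark arrays at 11.24, 12.81 and 14.77. The difference was 3.49 ± 0.36 (SE), or 11.2-fold (limma, adjusted p = 4.06e-05). Gpcpd1 encodes an enzyme that splits glycerophosphocholine, a breakdown product of the same lipid (chromosome 2, 132529082 to 132578248), and it led the opposite list. Its light arrays ran from 13.11 through a median of 14.55 to 15.43, and its dark arrays from 10.99 through 11.73 to 12.47. It was 5.93-fold lower in the dark, a difference of -2.57 ± 0.31 (adjusted p = 0.000173). The choline kinase gene and the glycerophosphodiesterase gene were high in opposite phases. Both were picked for having no overlap of dark and light arrays, so their separation on every array compared is no further result.

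Metabolic regulators were also among these 24 genes. Ppard encodes the nuclear receptor PPAR delta. Its 9 light arrays lay between 5.79 and 6.42, near background, and its dark arrays between 6.45 and 9.55, a difference of 1.88 ± 0.17 (adjusted p = 1.75e-05). The dark values were not even, with a mean of 6.56 ± 0.13 (SD, n = 3) at ZT15 against 8.67 ± 0.44 at ZT18 and 8.77 ± 0.77 at ZT21. Pmvk, the phosphomevalonate kinase of cholesterol synthesis (chromosome 3, 89454541 to 89469014), went from 9.13 to 11.06 in the light to 11.18 to 13.75 in the dark, 4.79-fold higher (adjusted p = 0.000208). Dapk1, a calmodulin-regulated kinase linked to cell death, was 2.89-fold higher (adjusted p = 0.000322). Leo1, a subunit of the PAF1 complex that travels with RNA polymerase II, was 2.49-fold higher, and Nectin1, a cell adhesion molecule, 2.53-fold (both adjusted p = 2.83e-05). Lonrf3, Abtb2, Celsr1, Lgalsl and Cutal made up the rest of the higher genes, between 2.33-fold and 4.22-fold.

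The 12 lower genes included enzymes, a carrier and a kinase. Cpt1a encodes the enzyme that admits long-chain fatty acids to mitochondria (chromosome 19, 3322326 to 3385735). Its light arrays lay at 15.35, 15.67 and 16.08 (lowest, median, highest) and its dark arrays at 13.88, 14.43 and 14.74, 2.34-fold lower (adjusted p = 5.88e-06). Eci2, an isomerase used in the oxidation of unsaturated fatty acids, was 2.71-fold lower (adjusted p = 0.000935). Pck1, which encodes the cytosolic PEP carboxykinase of gluconeogenesis (chromosome 2, 173153073 to 173159274), had light arrays between 18.78 and 19.33 and dark arrays between 15.3 and 18.69. Its 3.78-fold difference (adjusted p = 0.00261) is limited from above, since 7 of its 11 probe sets reached the top of the scale, 19.93, on at least 1 array, and with its brightest probe set it was -0.87 and not called (adjusted p = 0.1). Slc38a2, a sodium-coupled carrier of neutral amino acids, was 2.95-fold lower (adjusted p = 1.75e-05), and Ulk1, the kinase that starts autophagy, 2.26-fold (adjusted p = 0.00137). Flcn, folliculin, which acts in lysosomal nutrient sensing, was 1.91-fold lower (adjusted p = 0.000171). Tns2, Pik3ap1, Il15ra, Ripk2 and Clmn completed the 12, between 2.0-fold and 3.04-fold lower.

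Clock genes were called in both directions. Of the 19 measured clock genes in the lists, 12 were called, 5 higher and 7 lower in the dark. Over all genes 3.1% were called, and 6.36% of those above background, and the counts of every list below are to be read against these shares. Higher were the activators Arntl, Clock and Npas2, the late repressor Cry1, and Nfil3, which represses D-box genes. Lower were the REV-ERB genes Nr1d1 and Nr1d2, the repressors Per3, Ciart and Bhlhe41, and the D-box activators Dbp and Tef. Cry1 was the only one of the 19 whose dark and light arrays did not overlap.

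Among the activators, Arntl (chromosome 7, 113178471 to 113314126) had light arrays at 6.28, 7.58 and 10.72 and dark arrays at 9.76, 11.93 and 12.35 (lowest, median, highest). It was 13.2-fold higher in the dark, a difference of 3.72 ± 0.35 (adjusted p = 1.75e-05). The overlap came from ZT3 replicate 1, the highest light array, and without it the difference was 3.97. Npas2, which replaces CLOCK as a partner of BMAL1, had light arrays between 4.78 and 7.53 and dark arrays between 4.55 and 9.18. Its difference was 1.83 ± 0.30 (adjusted p = 0.00258), or 2.06 without ZT3 replicate 1, and its 3 ZT15 arrays were as low as the light ones. Clock differed by 0.95 ± 0.21 (adjusted p = 0.0196). Neither Arntl2 (-0.02, adjusted p = 0.962), which was below background, nor Rora (0.17, adjusted p = 0.455), an activating receptor at ROR elements, was called.

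Among the repressors, Cry1 (chromosome 10, 85131700 to 85185054) had light arrays at 6.86, 7.34 and 8.34 and dark arrays at 9.35, 10.58 and 11.3. The difference was 2.95 ± 0.20, or 7.7-fold (adjusted p = 1.52e-06). Nr1d1, which encodes REV-ERB alpha (chromosome 11, 98767932 to 98775377), had light arrays at 9.05, 11.1 and 12.62 and dark arrays at 6.02, 6.91 and 9.45, 14.9-fold lower in the dark (adjusted p = 4.06e-05). The highest dark value, 9.45, came from ZT21 replicate 3 and was above the 2 lowest light arrays. Nr1d2, which encodes REV-ERB beta, was 8.89-fold lower, with 1 dark array, at 11.66, above the lowest light array, at 11.6. That light array was ZT3 replicate 1, and without it the difference moved from -3.15 ± 0.23 to -3.33.

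Ciart, a repressor that binds BMAL1, had light arrays at 5.15, 9.08 and 9.32 and dark arrays at 5.33, 5.61 and 7.67. It was 4.47-fold lower (adjusted p = 0.00183), with a difference of -2.36 without ZT3 replicate 1 and likewise without ZT15 replicate 1. Per3 was 3.07-fold lower (adjusted p = 0.0121), and its difference of -1.62 became -1.88 without ZT3 replicate 1. Bhlhe41, encoding DEC2, was 3.15-fold lower (adjusted p = 0.000863), with a mean of 6.59 in the light, just above background, and 4.93 in the dark, below it. Bhlhe40, which encodes DEC1 (-0.80, adjusted p = 0.423), and Cry2 (-0.43, adjusted p = 0.253) were not called.

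The clock output factors had the widest difference of the 19 genes. Dbp (chromosome 7, 45705100 to 45710203) had light arrays at 7.39, 12.16 and 12.94 and dark arrays at 5.85, 6.86 and 9.41. It was 24.9-fold lower in the dark, a difference of -4.64 ± 0.53 (adjusted p = 0.000106), and -5.18 without ZT3 replicate 1. Its relative Tef was 2.39-fold lower (adjusted p = 0.00138; the difference of -1.26 became -1.42 without ZT3 replicate 1), while Hlf, of the same family, was at -0.34 (adjusted p = 0.459). Nfil3, which competes with them for the same sites, was 2.37-fold higher (adjusted p = 0.00281). All 12 called clock genes stayed called without ZT3 replicate 1, without ZT15 replicate 1 and with only replicates 2 and 3. With only replicates 2 and 3, all 4 genes of the list of Dbp, Tef, Hlf and Nfil3 were called, so Hlf was called too. In that fit 7 of the 10 clock repressors were called.

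**Figure D2:**
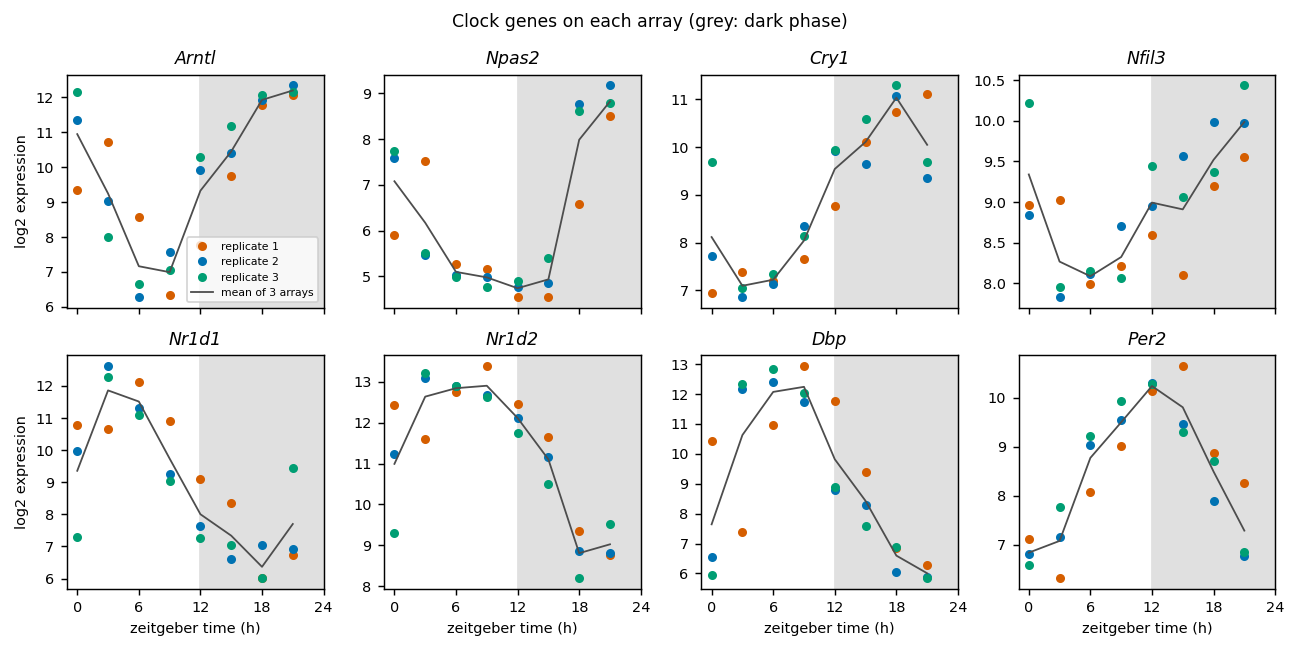
Log2 expression of 8 clock genes on each of the 24 arrays against zeitgeber time in hours, with points coloured by replicate number, a line through the means of 3 arrays and grey for the dark phase. Arntl, Cry1 and Nfil3 have higher means in the dark, Npas2 is high at ZT18 and ZT21 but not at ZT15, Nr1d1, Nr1d2 and Dbp are high in the light, and Per2 rises and falls around ZT12 with similar levels in both phases; replicate 1 at ZT3 lies away from replicates 2 and 3 for Dbp, Nr1d2, Npas2 and Arntl.

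The promoters of 4 clock genes are shown, picked for holding matches to elements of the loop, in genes that were high in opposite phases. Each is the 250 bases before the start of transcription from RefSeq (GRCm38.p6), written 5′ to 3′ on the gene's strand, with matches to the searched elements in capitals. The searched elements were the E-box CACGTG, its variant CACGTT (the E-prime box, AACGTG on the other strand), the D-box as TTATGTAA or TTACGTAA, and the core of the ROR element as TAGGTCA and as the variant TGGGTCA. Both strands were searched, and in Nfil3 the core was found on the opposite strand, where it reads TGACCTA.
Ciart, 3 E-boxes, chr3:95882229-95882478, minus strand: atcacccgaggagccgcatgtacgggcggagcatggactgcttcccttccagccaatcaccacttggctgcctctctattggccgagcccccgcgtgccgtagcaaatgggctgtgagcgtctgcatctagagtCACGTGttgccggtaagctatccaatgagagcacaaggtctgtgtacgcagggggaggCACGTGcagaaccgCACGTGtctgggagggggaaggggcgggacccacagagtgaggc
Cry1, 1 E-prime box and 1 E-box, chr10:85185055-85185304, minus strand: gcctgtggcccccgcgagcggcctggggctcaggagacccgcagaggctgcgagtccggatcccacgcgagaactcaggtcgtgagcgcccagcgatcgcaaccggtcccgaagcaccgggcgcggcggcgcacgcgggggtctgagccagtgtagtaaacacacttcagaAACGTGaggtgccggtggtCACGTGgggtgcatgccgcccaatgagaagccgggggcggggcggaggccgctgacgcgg
Per3, 2 D-boxes, chr4:151044666-151044915, minus strand: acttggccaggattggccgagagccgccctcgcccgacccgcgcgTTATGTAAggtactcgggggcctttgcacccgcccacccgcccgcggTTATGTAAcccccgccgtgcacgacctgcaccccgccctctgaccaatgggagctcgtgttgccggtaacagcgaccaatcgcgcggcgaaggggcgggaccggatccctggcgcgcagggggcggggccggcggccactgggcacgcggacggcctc
Nfil3, 1 ROR element core, chr13:52981040-52981289, minus strand: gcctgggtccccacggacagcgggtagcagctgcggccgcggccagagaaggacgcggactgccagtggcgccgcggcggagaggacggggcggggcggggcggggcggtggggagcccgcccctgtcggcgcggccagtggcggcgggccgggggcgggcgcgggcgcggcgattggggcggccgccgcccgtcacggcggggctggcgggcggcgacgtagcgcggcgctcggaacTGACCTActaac

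E-boxes were found before genes of both directions, Cry1 (high in the dark) and Ciart (high in the light) among them. Per1, Cry2, Nr1d1, Bhlhe41 and Tef also had an E-box or E-prime box. The promoters of Clock, Npas2, Nr1d2, Dbp, Rora, Arntl2 and Hlf held no E-box, E-prime box, D-box or ROR core. The only match of Arntl was a ROR core at position 31 after the start. Per2 and Bhlhe40 had no promoter in the set searched. A match is a description of these letters and not a bound site. Over all genes, 332 of the 405 higher and 249 of the 311 lower genes had at least 1 promoter in the RefSeq table, counted over its full 300 bases. An E-box was present in 15.8% of the 311 promoters of lower genes, in 9.01% of the 444 promoters of higher genes and in 7.15% of all 32851 promoters. The ROR core was present in 9.68% of the promoters of higher genes, 4.5% of those of lower genes and 6.45% of all. The sterol element TCACNCCAC was in 2.7%, 1.93% and 1.24% in the same order. For the E-prime box these shares were 4.5%, 6.11% and 4.68%, and for the D-box 1.13%, 0.643% and 1.06%. The heat shock core GAANNTTC (6.53%, 5.79% and 7.86%) and the forkhead element GTAAACA (4.05%, 3.22% and 3.65%) completed the search. No test was made of these shares, and genes with several promoters count more than once.

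Genes of lipid synthesis were higher in the dark wherever they were called. In the list of fatty acid and triglyceride synthesis, 8 of 26 measured genes were called higher and none lower. Over all genes 1.75% were called higher and 1.35% lower. The median difference was 0.40 over the 26 (21 positive), against 0.0002 over all genes. Pnpla3, a lipid-droplet lipase and acyltransferase (chromosome 15, 84167776 to 84189521), was at 4.79, 5.29 and 6.23 in the light and 5.98, 8.33 and 9.86 in the dark, 6.53-fold higher (adjusted p = 0.00111). Elovl3, a fatty acid elongase, spanned 11.57 to 17.75 in the light and 13.83 to 18.42 in the dark, 5.79-fold higher (adjusted p = 0.00978), with overlapping arrays and a difference of -0.87 between ZT15 and ZT3. Acacb and Acly make malonyl-CoA and cytosolic acetyl-CoA, and were 3.76-fold and 3.29-fold higher (adjusted p = 0.00261 and 0.0116).

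Acss2, which makes acetyl-CoA from acetate, was 3.73-fold higher (adjusted p = 0.00398), and Gpam, which starts glycerolipid synthesis, 2.79-fold (adjusted p = 0.00478). Agpat2 (1.76-fold) and Elovl5 (1.74-fold) were the remaining calls. Fasn, the fatty acid synthase, was 1.16 ± 0.33 higher but not called (adjusted p = 0.0676), and Srebf1, whose protein SREBP1 drives these genes, was at 0.61 (adjusted p = 0.408). The calls of Agpat2 (lost without ZT15 replicate 3, adjusted p = 0.0509) and Elovl5 held in 17 and 5 of the 18 fits that each left out 1 array.

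Cholesterol synthesis gave a similar count. Of its 21 measured genes, 9 were called higher and none lower, with a median difference of 0.55 and 18 positive differences. Besides Pmvk, these were Lss (lanosterol synthase, 3.01-fold, adjusted p = 0.0143), Mvd (2.75-fold), Fdps (2.57-fold), Hmgcs1 (HMG-CoA synthase, 2.09-fold), Dhcr7 (1.66-fold) and Sc5d (1.46-fold). Insig1 and Insig2, which hold SREBP precursors in the endoplasmic reticulum, were 2.18-fold and 2.65-fold higher (adjusted p = 0.0267 and 0.00451). Insig2 did not separate the pairs of hours evenly: its mean was 13.16 ± 0.79 (SD, n = 3) at ZT3, close to the 13.67 ± 0.24 at ZT18, and it was 10.60 ± 0.67 at ZT9. The calls of Hmgcs1, Dhcr7, Sc5d and Insig1 held in 5, 7, 5 and 9 of the 18 fits without 1 array. Taking the brightest probe set of each gene in place of the mean left 4 calls in each of these 2 lists.

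**Figure D3:**
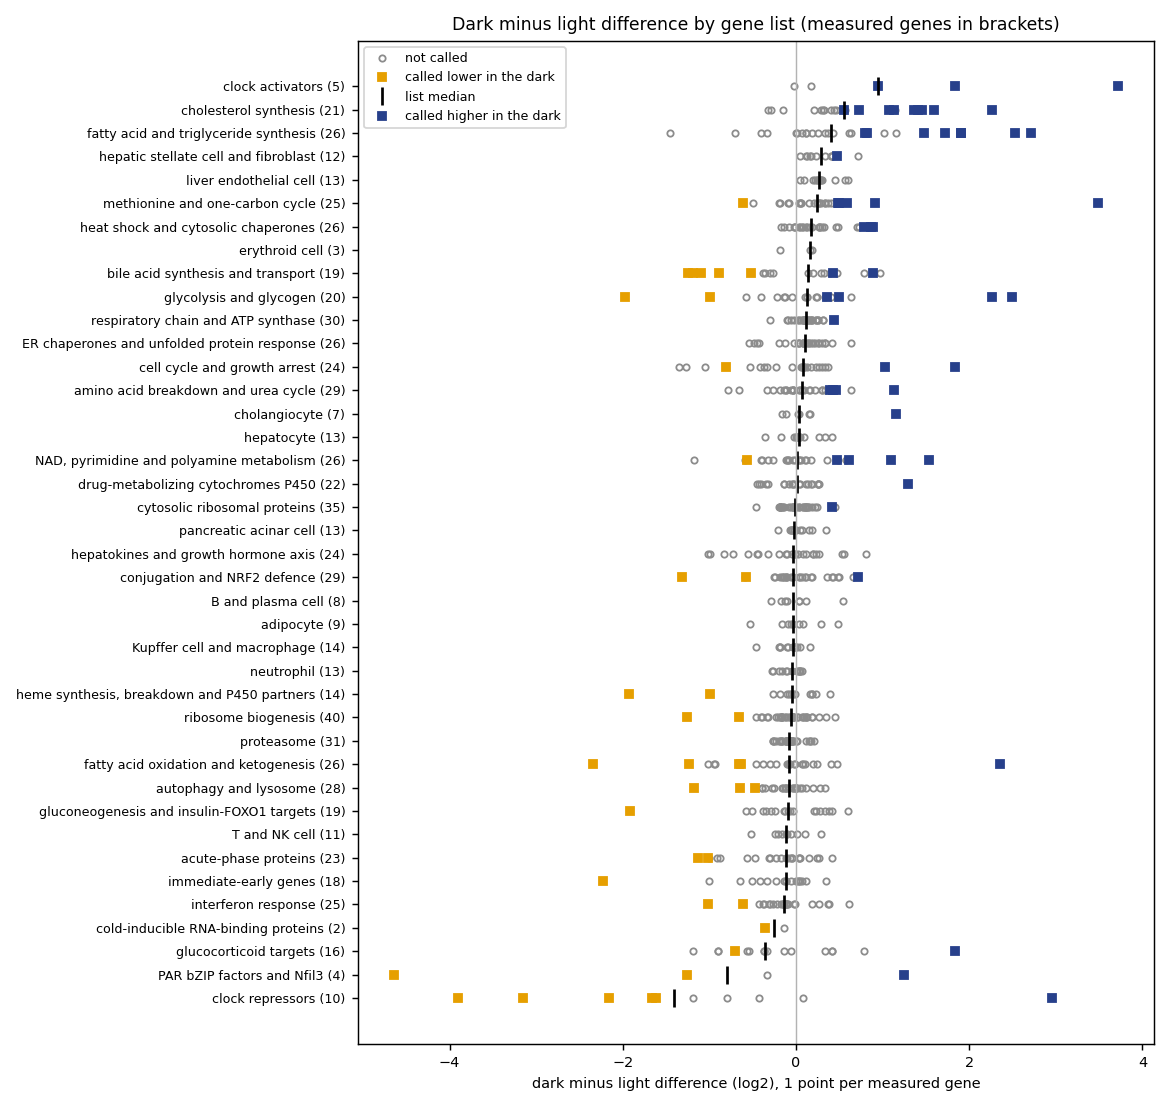
Dark minus light difference (log2) of every measured gene in 40 lists, 1 row per list with the number of measured genes in brackets, open circles for genes not called, filled squares for called genes and a bar for the list median. Called genes of cholesterol synthesis and of fatty acid and triglyceride synthesis lie to the right of 0, called clock repressors other than Cry1 lie to the left, and most genes of most lists lie near 0.

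Glycogen and glucose genes moved in both directions. Ppp1r3b and Ppp1r3c encode subunits that bring protein phosphatase 1 to glycogen. Ppp1r3b was at 9.57, 10.52 and 12.54 in the light and 11.61, 13.39 and 13.8 in the dark, 5.6-fold higher (adjusted p = 0.00038), and Ppp1r3c was 4.79-fold higher (adjusted p = 0.0257). The call of Ppp1r3c was lost without any of 7 single arrays (ZT15 replicate 3, ZT18 replicates 2 and 3, ZT21 replicate 3, ZT6 replicates 2 and 3, and ZT9 replicate 1), with adjusted p up to 0.061. Gys2, the liver glycogen synthase, was 1.98-fold lower in the dark (adjusted p = 0.00483), and Pfkfb3, which makes the activator of phosphofructokinase, 3.92-fold lower (adjusted p = 0.000346). Pfkl and Pgk1, enzymes of glycolysis, were 1.42-fold and 1.28-fold higher. Those 6 calls were among 20 measured genes, against 3.1% of all genes and 6.36% of those above background.

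Genes of fasting metabolism were called less evenly than the synthesis lists. Of 26 genes of fatty acid oxidation and ketogenesis, 4 were called lower (Cpt1a, Bdh1, Angptl4 and Ppara) and 1 higher, with a median of -0.08. The higher one, Pdk4, is the kinase that switches off pyruvate dehydrogenase, usually described as a fasting gene. It was at 6.35, 7.47 and 10.3 in the light and 8.94, 10.21 and 11.84 in the dark, 5.12-fold higher (adjusted p = 0.000936). Ppara, the fatty acid receptor, was 1.55-fold lower (adjusted p = 0.0252), a call that held in 10 of the 18 fits without 1 array. Angptl4, an inhibitor of lipoprotein lipase, was 5.05-fold lower (adjusted p = 0.0349), a call that held in 7 of those 18 fits (adjusted p up to 0.0763). Pck1 was the only call among 19 genes of gluconeogenesis and insulin-FOXO1 targets, against 3.1% of all genes and 6.36% of those above background. In that list G6pc, the glucose-6-phosphatase gene, was at -0.58 (adjusted p = 0.455). Autophagy and lysosome genes gave 3 lower calls of 28, Ulk1, Atg14 (1.39-fold) and Bnip3 (1.57-fold). Those of Atg14 and Bnip3 held in 8 and 7 of the 18 fits that left out 1 array.

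Bile acid genes had calls in both directions, and both calls of the heme list were lower in the dark. Of 19 bile acid genes, Akr1d1 and Acox2, enzymes of the synthesis route, were higher in the dark and 5 were lower. Akr1d1 did not overlap: its light arrays lay between 14.09 and 14.86 and its dark arrays between 15.13 and 15.56, 1.85-fold higher (adjusted p = 0.000174). The lower genes were the biliary exporters Abcb4 (1.86-fold), Abcg5 (2.15-fold) and Abcg8 (2.38-fold) and the enzymes Cyp7b1 (2.27-fold) and Amacr (1.43-fold). The adjacent genes Abcg5 and Abcg8 encode the 2 parts of 1 sterol exporter. Cyp7a1, whose enzyme sets the pace of the classic bile acid route, was at 0.79 ± 0.30 and not called (adjusted p = 0.203), with its lowest hour at ZT3, 12.81 ± 1.44, and means of 14.79 to 15.65 in the dark. Calls of Acox2, Abcg8, Cyp7b1 and Amacr held in 5, 6, 7 and 8 of the 18 fits that left out 1 array. Alas1, the rate-limiting enzyme of heme synthesis, was 3.82-fold lower in the dark (adjusted p = 0.0132) and Por, which passes electrons to cytochromes P450, 1.99-fold lower (adjusted p = 0.0101), out of 14 genes of that list. The Alas1 arrays lay between 12.3 and 13.98 at ZT3 and between 11.63 and 14.12 at ZT15. Its call was lost with the brightest probe set (adjusted p = 0.205), without ZT18 and ZT6 (0.208) and without ZT21 and ZT9 (0.336). Of 22 drug-metabolizing P450 genes only Cyp2b10 was called, against 3.1% of all genes and 6.36% of those above background. Cyp2b10 was 2.44-fold higher (adjusted p = 0.00267), from values below the background percentile in the mean.

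One-carbon, NAD and amino acid genes were mostly higher where called. In the methionine and one-carbon list 5 of 25 genes were higher: Chka, Bhmt2 (1.88-fold, adjusted p = 0.00161), Gnmt, Shmt1 and Aldh1l1. Mat2a, a synthase of S-adenosylmethionine, was 1.53-fold lower. Calls of Aldh1l1, Mat2a and Shmt1 held in 11, 9 and 6 of the 18 fits without 1 array. Gnmt, which uses S-adenosylmethionine to methylate glycine, had light arrays between 16.72 and 17.36 and dark arrays between 17.39 and 18.11, without overlap (1.4-fold, adjusted p = 0.0191). Of 26 NAD, pyrimidine and polyamine genes, Acmsd, Kynu and Haao, enzymes of tryptophan breakdown along the kynurenine route, and Tk1, thymidine kinase, were higher and Azin1 lower. Tk1 was 2.15-fold higher (adjusted p = 8.78e-05). Kynu lost its call without ZT6 replicate 2 (adjusted p = 0.0511), and the call of Azin1 held in 13 of the 18 fits. Acmsd was 2.88-fold higher (adjusted p = 0.0233), a call lost without ZT18 replicate 3, ZT6 replicate 2 or ZT9 replicate 1 (adjusted p = 0.0517, 0.0558 and 0.05). Among 29 genes of amino acid breakdown and the urea cycle, Ddc (2.19-fold), Nags (1.38-fold), Prodh2 (1.35-fold) and Uroc1 (1.31-fold) were called higher, of which Nags, Prodh2 and Uroc1 held in 4, 8 and 5 of 18 such fits and Ddc in 14.

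Growth, stress and immune genes gave between 1 and 3 calls in each list that had any, against 3.1% of all genes and 6.36% of those above background. Cdkn1a, the cell cycle inhibitor p21, was 3.58-fold higher (adjusted p = 0.000935) and Btg1, an antiproliferative gene, 2.04-fold (adjusted p = 0.00628), while Ccne1, cyclin E1, was 1.75-fold lower (adjusted p = 0.00984). Cdkn1a and Ccne1 were below the background percentile in the mean. Klf10, a zinc-finger factor induced by the clock and by nutrients, was 4.69-fold lower (adjusted p = 0.0126) and was the only call among 18 immediate-early genes. Klf9 was 1.62-fold lower (adjusted p = 0.00166) and with Cdkn1a made up the calls among 16 glucocorticoid targets.

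Fkbp4, Hspa4l and Bag3, co-chaperone and chaperone genes, were 1.85-fold, 1.83-fold and 1.72-fold higher (adjusted p = 0.00315, 0.0207 and 0.0108) out of 26 heat shock genes, 20 of which were positive. Hspa1b, the classic heat-inducible HSP70 gene, was at 0.12 (adjusted p = 0.944). Gnl3 and Wdr43, nucleolar proteins of ribosome assembly, were lower, 2.39-fold and 1.58-fold, out of 40 ribosome biogenesis genes with a median of -0.06. The call of Wdr43 (adjusted p = 0.0499) held in 4 of 18 fits that left out 1 array. Sult1a1 was higher (1.65-fold) and Gstt2 and Gss lower (2.5-fold and 1.49-fold) among 29 conjugation and NRF2 genes. Il1r1 and Socs3 were lower (2.02-fold and 2.19-fold) among 23 acute-phase genes, and Ifit1 and Usp18 (1.52-fold and 2.03-fold) among 25 interferon response genes. The calls of Gss, Il1r1 and Ifit1 held in 13, 5 and 9 of the 18 fits, and that of Socs3, with a mean of 6.55 in the light and 5.42 in the dark, was lost without ZT15 replicate 3 or ZT18 replicate 1 (adjusted p = 0.0515 and 0.0501). The single calls of Rpl14, of 35 ribosomal protein genes (adjusted p = 0.0381), and of Cirbp, of 2 cold-inducible genes (adjusted p = 0.0484), held in 5 and 2 of the 18 fits. Ndufa9, a complex I subunit, was 1.36-fold higher (adjusted p = 0.00426), the only call of 30 respiratory chain genes.

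No gene passed the test among 26 ER chaperone genes (3 at an unadjusted p below 0.05, limma), 31 proteasome genes (5) and 24 hepatokine and growth hormone genes (7). Their smallest adjusted p-values were 0.136 for Edem1, 0.125 for Psma4 and 0.105 for Inhbe. With the brightest probe set of each gene none of these 3 lists had a call either. With only replicates 2 and 3 of each hour, 3 of the 24 hepatokine and growth hormone genes were called, and none in the other lists.

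Few markers of the cell types in liver were called between the phases. Of 116 markers in 11 lists, 2 were called, against 3.1% of all genes and 6.36% of those above background. Both were higher in the dark: Sox9, a cholangiocyte marker (2.22-fold, adjusted p = 0.00276), and Pdgfrb, a stellate cell marker (1.39-fold, adjusted p = 0.0169). Neither was called with the brightest probe set of each gene. The 7 measured cholangiocyte markers had a median difference of 0.04, from -0.16 to 1.15, and 2 of them were above background. In bulk tissue, fewer cells of a type and less RNA per cell cannot be told apart. All 13 endothelial and all 12 stellate and fibroblast differences were positive, with medians of 0.26 and 0.29. The mean level of the endothelial list was 8.21 to 9.58 over the light arrays and 8.91 to 9.85 over the dark arrays, and that of the stellate list 7.78 to 8.76 and 7.96 to 9.01. The 14 Kupffer cell markers had a median of -0.04 and none was called. No neutrophil, B cell or acinar marker had a mean above the background percentile, and 2 of 11 T and NK cell markers did. The part of these cell types in the results above was not tested.

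The 3 pairs of hours that lie 12 h apart contributed unequally. On its own, ZT15 minus ZT3 gave 49 called genes (0.212%), ZT18 minus ZT6 gave 167 (0.723%) and ZT21 minus ZT9 gave 293 (1.27%). For the 716 genes of the pooled comparison, the median absolute difference was 0.51, 0.81 and 0.74 in that order. Of these genes, 616 had the same sign in all 3 pairs. Higher genes had their highest dark mean at ZT18 in 193 of 405 cases, and their lowest light mean at ZT6 in 184 and at ZT9 in 170. Lower genes had their highest light mean at ZT9 in 152 of 311 cases, while their lowest dark means were spread over ZT15 (113), ZT18 (90) and ZT21 (108). Leaving out ZT18 and ZT6 left 107 calls, and leaving out ZT21 and ZT9 left 263. Each pair holds replicate 1 arrays that stood apart on some clock genes, and their part in these counts was not tested.

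The difference between phases varied among the pairs in 67 genes (0.29%), tested by an F over the 3 pair differences with limma, and 62 of them had differences of both signs. Of the 67, 25 were also called in the pooled comparison. Por had pair differences of 1.09, -1.22 and -2.84 (ZT15 minus ZT3, ZT18 minus ZT6, ZT21 minus ZT9; adjusted p = 0.012 for their inequality). Its hour means were 11.40 ± 0.69 (SD, n = 3) at ZT3, 13.67 ± 0.19 at ZT9 and 10.82 ± 0.51 at ZT21. Npas2 went the other way, with -1.24, 2.88 and 3.84 (adjusted p = 0.0173), and Rnf125, a ubiquitin ligase gene, with -1.43, 2.27 and 3.47 (adjusted p = 0.0221). St6gal1, a sialyltransferase, differed in the first pair, with -2.05, -0.27 and 0.13, and Trim24, a transcriptional cofactor, in the later pairs, with -0.02, -1.04 and -1.61 (both adjusted p = 0.0173). The number of such genes ranged from 1 to 170 when single arrays were left out, lowest without ZT9 replicate 3 or ZT15 replicate 1 and highest without ZT6 replicate 1, and it was 0 with the brightest probe set of each gene.

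**Figure D4:**
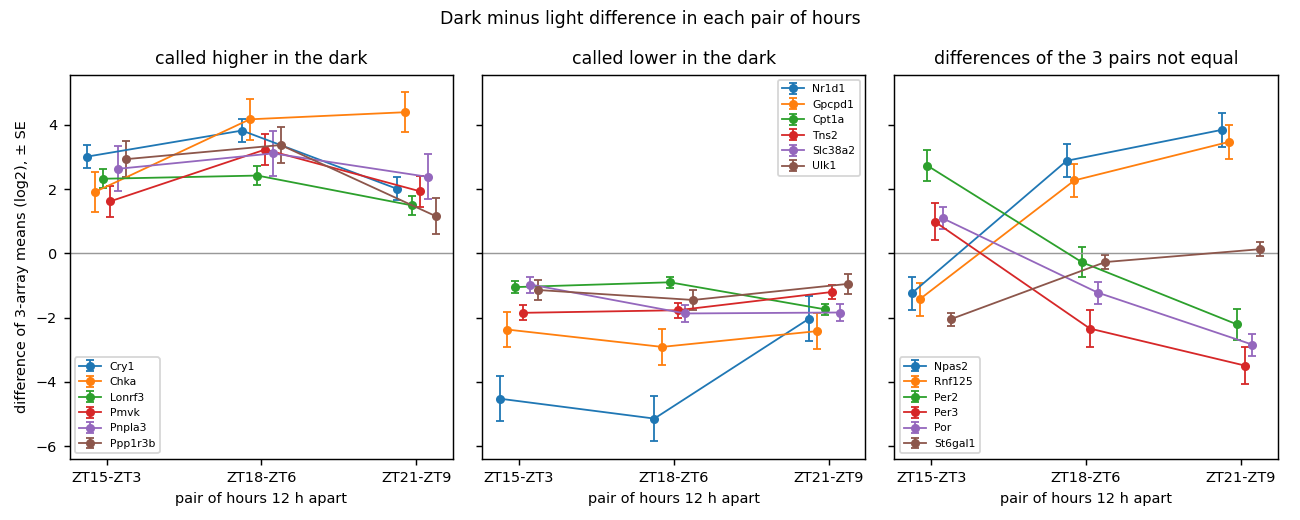
Difference of 3-array means (log2, with SE) in each pair of hours 12 h apart, for 6 genes called higher in the dark (left), 6 called lower (middle) and 6 whose 3 differences were unequal (right). Genes in the left and middle panels keep their sign in all 3 pairs, whereas Npas2 and Rnf125 go from negative to positive and Per2, Per3 and Por from positive to negative.

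Within a phase, few genes varied detectably over the 3 hours. Variation among ZT3, ZT6 and ZT9 was called in 9 genes (0.039%) and among ZT15, ZT18 and ZT21 in 3 genes (0.013%), of which 3 and 2 were also called between the phases. At an unadjusted p below 0.05 there were 2105 and 1387 genes, and 213 and 128 of the 716 pooled calls were among them. The called counts ranged from 0 to 88 in the light and 0 to 5 in the dark when single arrays were left out, the highest without ZT9 replicate 1 and ZT3 replicate 1. With only replicates 2 and 3 of each hour they were 40 in the light and 2 in the dark.

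Per2 shows what pooling hides. It had light arrays at 6.32, 9.02 and 9.93 and dark arrays at 6.77, 8.71 and 10.65, a difference of 0.08 ± 0.27 (adjusted p = 0.943). Its hour means were 7.08 ± 0.73 at ZT3, 8.77 ± 0.61 at ZT6, 9.50 ± 0.46 at ZT9, 9.81 ± 0.73 at ZT15, 8.49 ± 0.52 at ZT18 and 7.29 ± 0.83 at ZT21. The pair differences were 2.73, -0.28 and -2.21, and they were unequal (adjusted p = 0.0173). The sign of the pooled value turned without ZT3, ZT6, ZT15 or ZT21 replicate 1 (-0.05, -0.04, -0.06 and -0.08). Per1 was at -1.19 (adjusted p = 0.0923), with pair differences of 1.20, -1.61 and -3.17.

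The 6 arrays of the light switches were not in the pooled comparison, and in the median over the called genes both hours lay between the phases. ZT12 minus ZT0 was tested in a fit of all 24 arrays, and 285 genes were called (1.23%), 193 of them higher at ZT12 (0.835%) and 92 lower (0.398%). Of the 285, 167 had an unadjusted p of at least 0.05 between the phases. Of the 405 genes higher in the dark, 8 were called higher and 7 lower at ZT12, and of the 311 genes lower in the dark, 22 higher and 4 lower. On a scale with the light mean at 0 and the dark mean at 1, ZT0 stood at a median of 0.64 for higher and 0.84 for lower genes, and ZT12 at 0.51 for both. For genes lower in the dark, ZT0 was nearer to the dark mean in 239 of 311.

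The count for ZT12 minus ZT0 rested on single arrays. ZT0 replicate 1 had a mean correlation of 0.9678 with the other arrays, the lowest of the 24, and without it 115 genes were called. Without ZT0 replicate 2 there were 777, and without ZT12 replicate 1, 2 or 3 there were 39, 95 and 88. Per2 was 6.84 ± 0.27 (SD, n = 3) at ZT0 and 10.24 ± 0.10 at ZT12, a difference of 3.40 (adjusted p = 0.000589) that stayed called without any 1 of the 6 arrays. Tsku, which encodes the secreted protein tsukushi, had 6.70 ± 1.15 and 11.43 ± 0.97, a difference of 4.73 (adjusted p = 0.0141, and 0.0654 without ZT0 replicate 1). Serpina4-ps1, a pseudogene with many close relatives among which probes may be shared, differed by 6.54 (adjusted p = 0.0274), or by 3.9 without ZT0 replicate 1 (adjusted p = 0.0517). The other named genes of this kind were Eif4ebp3 and C4a (higher at ZT12, 3.36 and 3.00) and Il13ra1, Clec12a, Cd24a, Amdhd1 and Acta2 (lower, by differences from -1.96 to -1.59). Each of these 7 lost its call in at least 1 of the 6 fits that left out 1 of these arrays.

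Levels of immune cell markers differed among these 6 arrays. All 13 neutrophil and all 14 Kupffer cell and macrophage markers had lower means at ZT12 than at ZT0, with median differences of -1.80 and -1.45, and none was called. ZT0 replicate 1 had a mean of 9.8 over the neutrophil markers, against 4.5 to 5.03 on the other 5 arrays, and of 11.48 over the Kupffer markers, against 7.88 to 8.79. Without that array the medians were -0.14 and -0.42. The same array was the highest of the 6 for Clec12a, a myeloid receptor (9.81), Cd24a (9.96) and Il13ra1 (15.29). The part of these cells in the ZT12 minus ZT0 results was not tested.

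**Figure D5:**
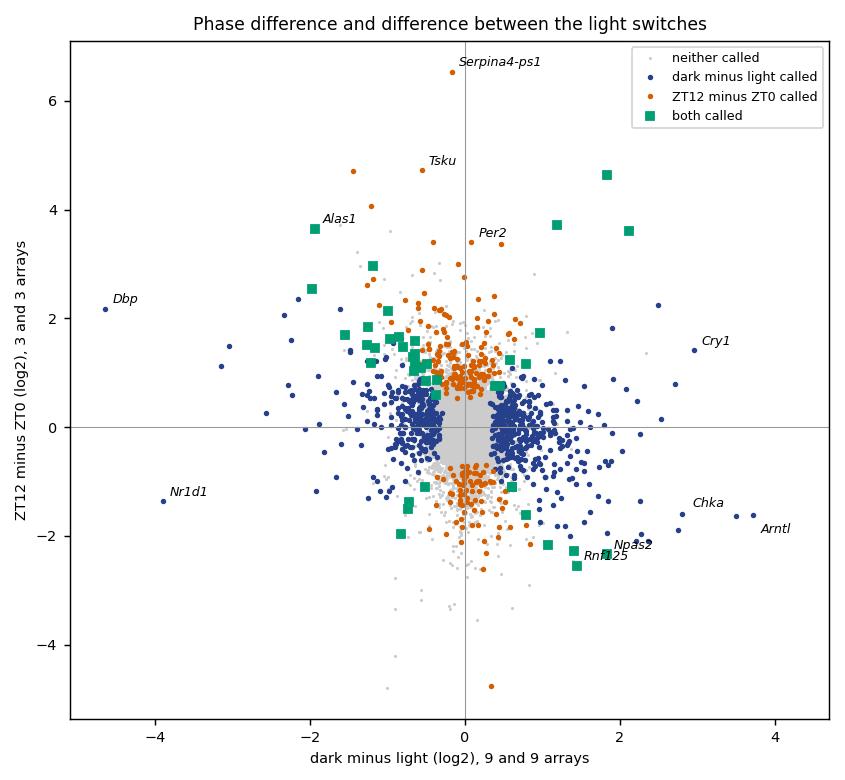
Difference between the light switches (ZT12 minus ZT0, 3 arrays each) against the difference between the phases (dark minus light, 9 arrays each), in log2, with 1 point per gene coloured by which of the 2 comparisons called it. Points called between the phases spread to the left and right, with Arntl and Chka at the right and Dbp at the left, those called between the switches spread up and down, with Per2 and Tsku near 0 on the horizontal axis, and squares mark the genes called in both.

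The calls differed in how well they held. The full set of alternatives was run for the 103 genes picked by the naming rule and not for the further list members. Of the 103, 75 were called between the phases, and 23 of the 75 were called under every one of the alternatives tried. Those 23 were Arntl, Chka, Cpt1a, Cry1, Cutal, Dapk1, Dbp, Eci2, Gpcpd1, Leo1, Lgalsl, Lonrf3, Nectin1, Nr1d1, Nr1d2, Pik3ap1, Pmvk, Pnpla3, Ppard, Ripk2, Slc38a2, Tk1 and Tns2. With the median probe set value in place of the mean 62 of the 75 were called, with only replicates 2 and 3, 60, and with the brightest probe set 46.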

How the data were processed

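The deposited table held log2 values for 269479 probe sets, normalized by the authors with a method not given in the sources used here. The submitters' processing notes name limma, Affymetrix Power Tools 2.10.0 and mm10. Probe sets with 1 gene symbol (233753) were averaged per gene, with a median of 8 per gene. Those with several symbols (5106) or none (30620) were not used. Old symbols (2247) and gene positions came from RefSeq tables.

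Limma 3.58.1 in R 4.3.3 fitted 6 hour means to the 18 arrays, with empirical Bayes moderation and Benjamini-Hochberg adjustment over 23102 genes, without a filter on dim genes. The fit was tested on simulated data. ZT12 minus ZT0 came from all 24 arrays. The alternatives were other normalizations, filters, probe set summaries, variance priors, array weights, a replicate block, other fits, and leaving out arrays or hours. Probe sets at the highest value, 19.93 (1279 probe sets of 314 genes), cannot show changes above it.

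Genes were named by a rule: the 12 largest differences in each direction among called genes without overlap, all clock genes, from every further list its 2 largest called members, or without a call its member of smallest p, the 5 most unequal among the pairs, the 5 largest differences in each direction between the switches, and 1 marker per cell type. Further list members were named after their values were seen. The comparison, lists and rule were chosen with earlier results of these data known. The main fit did not pair the arrays by replicate number.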

Additional observations from a re-analysis of the deposited data

Results flagged for a closer look

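Of 206 groups of 9 arrays (named genes, light or dark), 15 had an array far from the rest by Dixon's criterion, and chance gives about 1 in 20. Of these, 6 came from ZT3 replicate 1: Dbp at 7.39 (next array 10.98), Nr1d2 at 11.6 (12.64), Per3 at 6.27 (8.23) and Tef at 6.45 (7.59) were the lowest light values, and Npas2 at 7.53 (5.51) and Hspa4l at 10.36 (9.42) the highest. ZT3 replicate 2 was lowest for Fkbp4, at 10.8 (11.57). ZT15 replicate 1 was the highest dark array for Ciart, at 7.67 (5.91), and for Tat, at 19.81 (19.65), near the top of the scale. ZT15 replicate 2 was lowest for Bhmt2, at 14.48 (15.07), and Nags, at 9.57 (10.13). ZT15 replicate 3 was highest for Pax5, at 5.72 (5.34), below background. ZT21 replicate 1 was highest for Il1r1, at 12.95, ZT21 replicate 2 lowest for Il15ra, at 7.96 (8.5), and ZT9 replicate 2 highest for Acmsd, at 12.13 (10.7).

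Among the named genes, 10 had unequal differences in the 3 pairs of hours (limma, adjusted over all genes). The adjusted p was 0.012 for Por, 0.0173 for each of Npas2, Per2, St6gal1 and Trim24, 0.0221 for Rnf125, 0.0374 for Ppard, 0.0478 for Amdhd1, 0.0489 for Per3 and 0.0499 for Tk1. Their pair differences, in the order ZT15 minus ZT3, ZT18 minus ZT6 and ZT21 minus ZT9, were 0.35, 2.53 and 2.77 for Ppard, 1.82, 1.31 and 0.18 for Tk1, 0.98, -2.34 and -3.49 for Per3 and -1.61, 0.04 and 1.41 for Amdhd1.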

How the results depend on the processing

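The number of genes called between the phases stayed within 1.5 times 716 under other normalizations, priors, array weights, a 2-group fit, all 24 arrays and only replicates 2 and 3. It was 280 with the brightest probe set (160 higher, 120 lower; 215 shared), 385 with the median probe set (233 and 152; 330 shared), 107 without ZT18 and ZT6 (60 and 47), and 263 without ZT21 and ZT9 (151 and 112). Lower calls were 189 with replicates 2 and 3. Leaving out single arrays gave 466 to 770 calls, 267 to 477 higher and 195 to 356 lower. Genes unequal among the pairs numbered 156 among genes above background only, 0 with the brightest and 20 with the median probe set, 2 without moderation, 106 with array weights, and 1 to 170 without single arrays. Genes varying within the light were 0 with quantile normalization, the brightest or median probe set or no moderation, 40 with replicates 2 and 3 and 0 to 88 without single arrays; within the dark, 0 with the brightest probe set or no moderation, 1 with the median probe set or all 24 arrays and 0 to 5 without single arrays. ZT12 minus ZT0 gave 428 with median centring, 611 above background only, 52 with the brightest and 116 with the median probe set, 160 without moderation, 70 with replicates 2 and 3, 23 with its 6 arrays alone, and 39 to 777 without single arrays. The causes were not tested.

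With the replicate block, 607 genes were called (578 shared), 341 higher and 266 lower; 21 were unequal among the pairs, 0 varied within the light, 0 within the dark, and 213 differed between ZT12 and ZT0. Deviations of same-numbered arrays from their hour means correlated at -0.227 to 0.409 (45 pairs, median -0.0335). Of 18 arrays, 3 correlated best with their own number. A deviation of replicate 1 that changes genes or sign from hour to hour need not show in such correlations.

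Of the 75 called named genes only Pdgfrb turned sign, to -0.01 with the brightest probe set. Genes not called turned as follows. With the brightest probe set Acta2 was -0.06, Clec12a 0.01, Hlf 0.00 and Per2 -0.27; with the median probe set Arntl2 was 0.10. With array weights Amdhd1 was 0.04 and Per2 0.00; with replicates 2 and 3 Amdhd1 was 0.38, Per2 -0.61 and Serpina4-ps1 0.23. Without ZT15 and ZT3 Amdhd1 was 0.73, Il13ra1 0.18 and Per2 -1.24 (limma, adjusted p = 0.0451); without ZT18 and ZT6 Arntl2 was 0.11, C4a 0.19 and Clec12a 0.00; without ZT21 and ZT9 C4a was 0.71, Serpina4-ps1 0.67 and Tsku 0.88. Without single arrays the values ran from -0.16 to 0.06 for Amdhd1, -0.07 to 0.04 for Arntl2, -0.31 to 0.15 for C4a, -0.13 to 0.09 for Clec12a, -0.49 to 0.08 for Serpina4-ps1 and -0.08 to 0.19 for Per2. Arrays have no depth; signal over background limits dim genes, and the top of the scale limits bright ones.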
